A study of Homo sapiens with 16 samples.

Results

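HepG2 cells, a human hepatocellular carcinoma line that serves as the liver compartment of a gut and liver chip, were compared with and without free fatty acids (FFAs) while they shared the chip with Caco-2 cells. The 4 libraries of this comparison, of 16 in the series, were taken as the labels give them: 2 HepG2 co-culture control libraries and 2 HepG2 co-culture FFA libraries. Both groups were the same line, and both were grown in a microfluidic device connected to Caco-2, a colon carcinoma line. They differed in the FFAs, a mixture of palmitic and oleic acid in a 1:2 molar ratio at 1 mM in total, given in DMEM with fatty acid-free BSA. The labels do not say whether the controls received the same BSA medium. They put sample preparation at 1 day after treatment, whereas the study's methods describe a longer exposure, so the length of treatment is uncertain here. The study's methods describe the mRNA-seq as done in independent experiments, but the labels do not tie these replicates to separate chips or days. The p-values below rest on the spread between these libraries, moderated by that of other genes. In fits that leave out 1 library, its group has no spread of its own.

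Polyadenylated RNA was turned into PCR-amplified cDNA and read on a Nanopore sequencer. The unit is CPM, counts per 1e+06 reads assigned to genes in the same library. Only genes that averaged 100 CPM or more over the 4 libraries were used. These were 1187 of the 15495 genes with a read, and they held 80.2% to 85.4% of the reads of each library. Of them, 129 had a control mean under 100 CPM and entered through their FFA values, and 50 had an FFA mean under 100 CPM.

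The FFA libraries stood apart from the controls in depth. The controls held 1657430 and 945975 reads, and the FFA libraries held 147096 and 49634, a 33.4-fold range. A single read was worth 0.603 and 1.06 CPM in the controls but 6.80 and 20.1 CPM with FFAs, and the median gene used here rested on 365 and 214 reads against 38 and 12. A floor of 3 reads, which covers counting error only, corresponds to 1.81 and 3.17 CPM in the controls and to 20.4 and 60.4 CPM with FFAs. Depth therefore cannot be told apart from FFA treatment in these 4 libraries. Liver identity was clear in all of them: the summed level of 18 hepatocyte markers was 61864 and 69113 CPM in the controls and 72517 and 91509 CPM with FFAs, although FOXA2, a liver transcription factor, was under 3 CPM in the controls and had no read with FFAs. The 18 markers of Caco-2 and intestine summed to 216 and 226 CPM in the controls and 238 and 322 CPM with FFAs, against 985 and 785 CPM in Caco-2 grown alone. Of these markers, 8 had no read in any of the 4 libraries, namely CDH17, CDX1, CDX2, CEACAM5, CEACAM6, LGALS4, MUC13 and SI. Most of these were low in Caco-2 as well, with CDX1 and LGALS4 at 0 in both libraries of Caco-2 grown alone without FFAs, and CDH17 was highest there, at 49.3 and 31.7 CPM. Another 3 markers were higher in both FFA libraries than in both controls, and 3 were lower. VIL1, which organises brush border actin, had 21.7 and 22.2 CPM in the controls and 61.2 and 100.7 CPM with FFAs. Its level in Caco-2 grown alone without FFAs was 24.6 and 36.4 CPM, below both of these FFA values. CLDN4, a tight junction protein, had 33.2 and 38.1 CPM and then 47.6 and 80.6 CPM, against 709 and 491 CPM in Caco-2 grown alone. SLC26A3, a chloride exchanger, had 8.45 and 12.7 CPM and then 27.2 and 40.3 CPM, against 2.74 and 1.17 CPM in Caco-2 grown alone. The 3 that were lower were TFF3, TSPAN8 and CLDN3. TFF3 was the only one of the 18 markers that averaged 100 CPM or more. It had 135 and 141 CPM in the controls and 95.2 and 80.6 CPM with FFAs, against 68.4 and 69.3 CPM in Caco-2 grown alone. TSPAN8 and CLDN3 were low in the controls and had no read with FFAs. Each of these FFA values rested on few reads or none, and the part of these markers in the results was not tested.

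The endoplasmic reticulum (ER) folds the proteins that a liver cell secretes. When unfolded proteins build up there, the sensors IRE1, PERK and ATF6 raise chaperones, disulfide isomerases and degradation factors, and, through the translation of ATF4, genes of amino acid synthesis. Saturated fatty acids such as palmitic acid are known to engage this unfolded protein response in hepatocytes, and fatty acids taken up by the cell are stored in lipid droplets, burned in mitochondria or exported in lipoproteins.

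With FFAs, 73 of the 1187 genes changed (6.15%), 50 upward (4.21%) and 23 downward (1.94%), by limma's moderated test with an adjusted p under 0.05. The genes that rose included ER chaperones and disulfide isomerases, the degradation factor HERPUD1, enzymes of serine and proline synthesis, receptors of ER to Golgi transport, the lipid droplet coat protein gene PLIN2 and several secreted liver proteins. Those that fell were mostly genes of the ribosome and the respiratory chain, which made up 15 of the 23. The lists of cytosolic ribosomal proteins and of the nuclear respiratory chain held 77 and 62 of the 1187 genes, and most of these did not pass. Of the 73 genes, 69 were protein-coding. FP671120.6, FP236383.5 and FP236383.4, known by clone names, were among those that rose, and whether they share reads was not tested. Rises ran from 1.51-fold (EEF1A1) to 4.93-fold (HERPUD1) and falls from 0.48 to 1.07 on the log2 scale. In all 73, the 2 FFA values lay on one side of both control values, as they did for 420 (35.4%) of all genes upward and 375 (31.6%) downward. The values are shares of each library's RNA, so fewer cells of a type and less RNA per cell cannot be told apart.

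The adjusted p of these 73 genes lay close together, between 0.0339 and 0.0485, and the count depended on the test: 236 genes passed edgeR's quasi-likelihood test on whole reads, 95 passed DESeq2 and 2 passed when every library was thinned to the shallowest. Without control replicate 1 or control replicate 2 the count was 15 or 16, and without FFA replicate 1 or FFA replicate 2 it was 721 or 572. Directions are relative to the scaling: TMM factors over every gene with a read, chosen after seeing the data, moved the median of all genes used to -0.65, so that 541 passed and 11 of them rose, and of the 16 lists that had at least 3 genes used and a median above 0, 3 kept one, those of ER chaperones (0.055), ATF4, CHOP and serine synthesis (0.29) and fatty acid oxidation (0.0044).

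**Figure D1:**
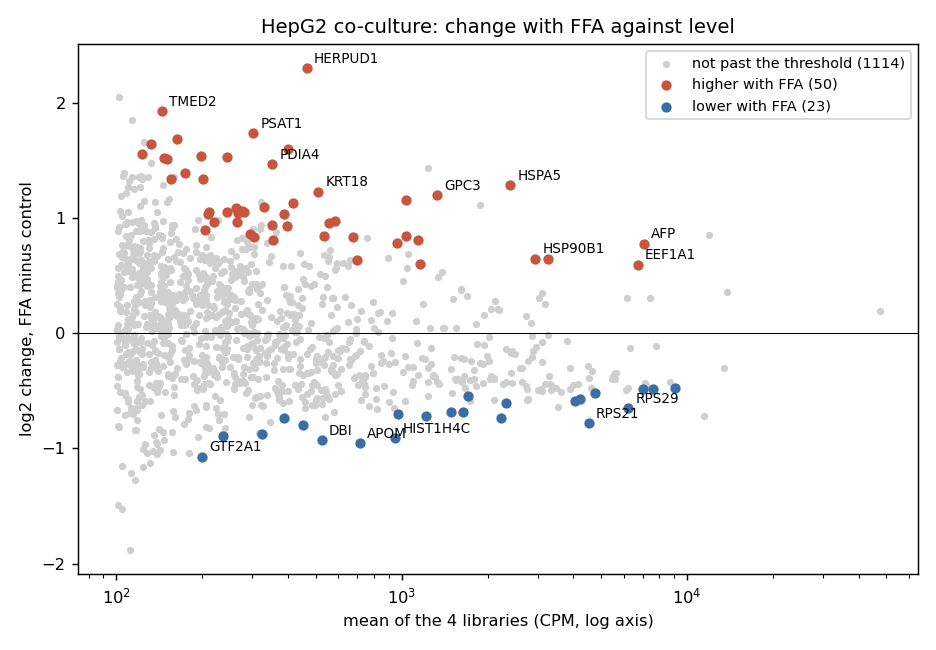
Each point is 1 of the 1187 genes, with the mean of the 4 libraries in CPM (log axis) against the log2 change, FFA minus control. The 50 genes that rose (red) reached 2.30 for HERPUD1, and the 23 that fell (blue) reached -1.07 for GTF2A1.

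The promoters of 4 ER genes that rose are shown first, because they carry the sequence elements through which the unfolded protein response is known to act. The ER stress response element, ERSE, is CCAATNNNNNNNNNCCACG, 2 short blocks with 9 bases between them, and ERSE-II is ATTGGNCCACG. Both end in the same block, so that a stretch of DNA can hold both. They were searched on both strands in the 250 bases before the start of each gene, in RefSeq sequence of GRCh38.p14, and the blocks are printed in capitals. An ERSE on the other strand reads CGTGG and then ATTGG here, as in CALR and at the second place in HSP90B1.

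HERPUD1 (chr16:56931892-56932141, plus strand): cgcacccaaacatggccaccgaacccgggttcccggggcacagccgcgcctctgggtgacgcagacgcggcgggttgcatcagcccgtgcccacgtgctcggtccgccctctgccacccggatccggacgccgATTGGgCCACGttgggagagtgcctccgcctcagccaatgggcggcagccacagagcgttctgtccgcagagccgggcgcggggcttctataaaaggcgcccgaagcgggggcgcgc

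HSPA5 (chr9:125241344-125241593, minus strand): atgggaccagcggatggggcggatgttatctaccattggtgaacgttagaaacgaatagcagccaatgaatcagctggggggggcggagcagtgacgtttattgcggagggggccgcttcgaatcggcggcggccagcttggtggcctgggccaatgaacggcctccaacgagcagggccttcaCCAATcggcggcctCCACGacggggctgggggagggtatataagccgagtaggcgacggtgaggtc

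CALR (chr19:12938359-12938608, plus strand): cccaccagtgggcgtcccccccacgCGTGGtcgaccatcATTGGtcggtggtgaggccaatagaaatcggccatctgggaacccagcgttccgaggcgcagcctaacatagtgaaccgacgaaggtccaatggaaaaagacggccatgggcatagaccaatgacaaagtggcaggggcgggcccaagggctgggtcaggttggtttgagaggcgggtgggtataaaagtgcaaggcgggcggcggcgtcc

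HSP90B1 (chr12:103930160-103930409, plus strand): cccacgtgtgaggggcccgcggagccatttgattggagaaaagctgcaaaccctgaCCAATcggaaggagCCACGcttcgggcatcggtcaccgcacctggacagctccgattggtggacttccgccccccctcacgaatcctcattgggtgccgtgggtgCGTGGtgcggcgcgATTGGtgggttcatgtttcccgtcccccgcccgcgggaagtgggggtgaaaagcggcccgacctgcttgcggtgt

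The HERPUD1 promoter held ERSE-II, the HSPA5 and CALR promoters held ERSE once, and the HSP90B1 promoter held it at 2 places. ERSE was in 22 of 27195 promoters of all genes (0.0809%) and ERSE-II in 14 (0.0515%). Among genes used here, a promoter was at hand for 845, of which 5 held ERSE and 3 held ERSE-II. Of the 33 genes that rose and had a promoter, 3 held ERSE and 1 held ERSE-II, and none of the 20 genes that fell and had a promoter held either. In the list of ER chaperones and disulfide isomerases, 4 of 16 promoters held ERSE and 2 held ERSE-II. Of the 7 genes of that list that rose and had a promoter, 3 held ERSE and none held ERSE-II. The amino acid response element TGATGNAAT, known from ATF4 targets, was in 250 promoters of all genes (0.919%), 4 of the 845 (0.473%) and none of the 33. Of the 3 genes of the ATF4, CHOP and serine list that rose, only 1 had a promoter at hand. These matches describe the letters only.

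ER chaperones and disulfide isomerases held more genes that rose than any other list. Of 28 genes, 17 reached 100 CPM, and 8 of these rose, none fell and 9 did not pass. The median log2 change of the 17 was 0.73, against 0.019 for all genes used. HSPA5, which encodes BiP, the main Hsp70 chaperone of the ER, had 1457 and 1318 CPM in the controls and 3854 and 2962 CPM with FFAs. Both FFA libraries stood above both controls, and the log2 change was 1.29 ± 0.15 (SE, adjusted p = 0.0339, limma). PDIA4, a disulfide isomerase, had 187 and 186 CPM in the controls and 509.9 and 524 CPM with FFAs, with close replicates in both groups. Its log2 change was 1.47 ± 0.16 (adjusted p = 0.0339).

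P4HB, the isomerase PDI itself and a subunit of collagen prolyl hydroxylase, had 176 and 214 CPM in the controls and 462 and 745 CPM with FFAs. The FFA libraries differed from each other but neither came near the controls, and the log2 change was 1.60 ± 0.26 (adjusted p = 0.0418). CALR, the calcium-binding chaperone calreticulin, had 711 and 698 CPM in the controls and 1129 and 1309.6 CPM with FFAs. This was a smaller rise of 0.79 ± 0.13 on the log2 scale (adjusted p = 0.0418). The others that rose were the ER Hsp90 gene HSP90B1 (0.65 ± 0.12, but -0.030 with TMM factors over every gene), the isomerases PDIA3 (0.84 ± 0.16) and PDIA6 (0.81 ± 0.16), and MANF, a secreted ER stress protein (1.06 ± 0.20).

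Other members of the list did not move in this way. HYOU1, a large Hsp70-like ER chaperone, had 123 and 109.9 CPM in the controls and 211 and 201 CPM with FFAs and did not pass (adjusted p = 0.0667). CANX, the membrane-bound lectin chaperone calnexin, had 183 and 124 CPM in the controls and 354 and 161 CPM with FFAs, so that its groups overlapped (adjusted p = 0.28). PPIB, an ER cyclophilin, had 2498 and 2604 CPM in the controls and 2583 and 1974 CPM with FFAs (log2 change -0.18). CNPY2 was the lowest, with 248 and 235 CPM in the controls and 197 and 161 CPM with FFAs (log2 change -0.43, adjusted p = 0.179).

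Among genes of ER-associated degradation and the stress sensors, 8 of 28 reached 100 CPM and HERPUD1 alone passed. HERPUD1 encodes a membrane protein of the degradation complex that is a classical target of the unfolded protein response. It had 153 and 148 CPM in the controls and 551 and 1007 CPM with FFAs. The FFA libraries differed from each other, on 81 and 50 reads, but the lower of them still stood well above both controls. The log2 change of 2.30 ± 0.29 (adjusted p = 0.0346) was the largest of the genes that passed. The median of the 8 genes was 0.39. SYVN1, the ubiquitin ligase HRD1 of the same complex, went the other way without passing, with 1602 and 1694 CPM in the controls and 1414 and 1249 CPM with FFAs (adjusted p = 0.137).

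In ER translocation and signal peptide processing, 25 of 32 genes were used and the median was 0.046, close to that of all genes. RPN1 and SRP9 rose and none fell. RPN1, a subunit of the oligosaccharyltransferase that adds N-glycans, had 91.1 and 111 CPM in the controls and 286 and 302 CPM with FFAs, a log2 change of 1.54 ± 0.22 (adjusted p = 0.0411). RPN2, its partner in the same enzyme, had 1942 and 2159 CPM in the controls and 2094 and 1914 CPM with FFAs and overlapped between the groups. SRP9, of the signal recognition particle, had 161 and 199 CPM in the controls and 319.5 and 383 CPM with FFAs (log2 change 0.96 ± 0.20, adjusted p = 0.0471), while its binding partner SRP14 had 583 and 585 CPM in the controls and 523 and 443 CPM with FFAs.

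In ER to Golgi transport, 14 of 38 genes were used, 3 rose and none fell, with a median of 0.29. TMED2, a p24 cargo receptor, had 64.5 and 55.0 CPM in the controls and 218 and 242 CPM with FFAs. Its log2 change was 1.93 ± 0.27 (adjusted p = 0.0411), and since its control values were under 100 CPM, it entered the test only because it was high with FFAs. KDELR2, a receptor that returns chaperones such as BiP to the ER, had 142 and 131 CPM in the controls and 252 and 322 CPM with FFAs (log2 change 1.05 ± 0.22, adjusted p = 0.0471). ARF1, a GTPase of coat assembly, had 173 and 189 CPM in the controls and 333 and 423 CPM with FFAs (log2 change 1.05 ± 0.20, adjusted p = 0.0459). Of the 50 genes that rose, 8 had a control mean under 100 CPM. Over these 4 groups of ER genes, 14 of 64 rose and none fell, where 4.21% of all genes used rose and 1.94% fell.

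**Figure D2:**
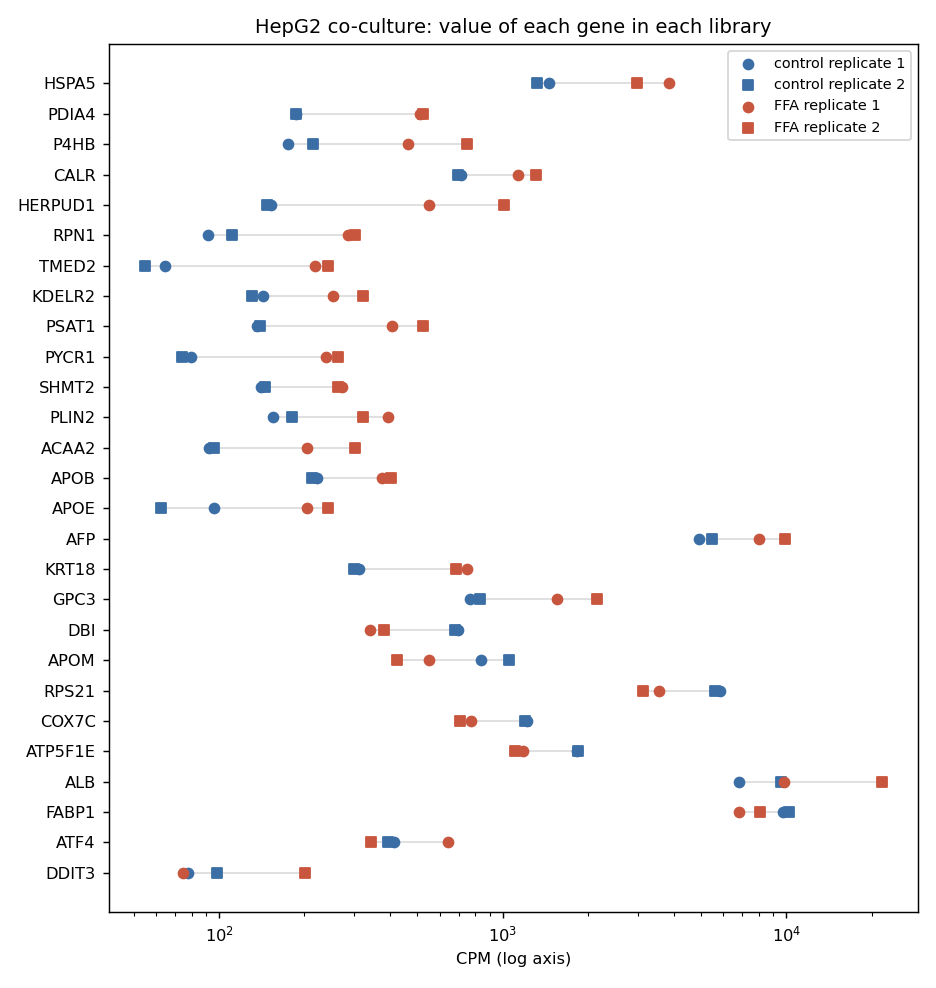
Points give the CPM (log axis) of 27 genes in each of the 4 libraries, with controls in blue, FFA libraries in red, circles for replicate 1 and squares for replicate 2. The FFA points of HSPA5, PDIA4, HERPUD1 and PSAT1 lay to the right of both control points and those of DBI, APOM, RPS21, COX7C and ATP5F1E to the left, while ATF4 and DDIT3 overlapped.

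Genes that ATF4 and CHOP control, together with those of serine synthesis, had the highest median of the lists, 0.96 over the 11 of 33 genes used. Of these, 3 rose, none fell and 8 did not pass. PYCR1, DDIT3, TRIB3 and ASNS had control means under 100 CPM and entered through their FFA values, so the filter itself favoured a high median. PSAT1, the aminotransferase of serine synthesis, had 136 and 139.5 CPM in the controls and 408 and 524 CPM with FFAs. Both FFA libraries were well above the controls (log2 change 1.74 ± 0.20, adjusted p = 0.0339). PYCR1, which makes proline in mitochondria, had 79.6 and 74.0 CPM in the controls and 238 and 262 CPM with FFAs and entered through its FFA values (log2 change 1.69 ± 0.23, adjusted p = 0.0411). SHMT2, which passes one-carbon units from serine to folate in mitochondria, had 141 and 145 CPM in the controls and 272 and 262 CPM with FFAs (log2 change 0.90 ± 0.19, adjusted p = 0.0471).

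The transcription factors upstream of these genes did not pass. ATF4, whose level is set mainly at translation, had 412 and 393 CPM in the controls and 639 and 343 CPM with FFAs, and its groups overlapped (log2 change 0.22 ± 0.29, adjusted p = 0.609). DDIT3, which encodes CHOP, had 77.8 and 98.3 CPM in the controls and 74.8 and 201 CPM with FFAs. The 2 FFA values rested on 11 and 10 reads and lay on different sides of the controls (adjusted p = 0.501). PHGDH, the first enzyme of serine synthesis, had 162 and 202 CPM in the controls and 258 and 201 CPM with FFAs and overlapped as well. TRIB3, a CHOP target, had 35.6 and 56.0 CPM in the controls and 102 and 262 CPM with FFAs, and ASNS, asparagine synthetase, had 91.7 and 92.0 CPM in the controls and 265 and 161 CPM with FFAs. Both TRIB3 and ASNS were higher in each FFA library without passing (adjusted p = 0.0715 and 0.0651). Like DDIT3, they entered only through their FFA values. None of the 3 aminoacyl-tRNA synthetases used passed, and the nearest was GARS (log2 change 1.05 ± 0.29, adjusted p = 0.0679). GARS had a control mean of 71.0 CPM and entered through its FFA values.

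Genes of lipid droplets and fatty acid handling were mostly too low to be used, and 5 of 38 were. PLIN2 encodes the coat protein of lipid droplets and is a target of the fatty acid sensor PPAR. It had 154 and 181 CPM in the controls and 394 and 322 CPM with FFAs, so both FFA libraries lay above both controls (log2 change 1.09 ± 0.20, adjusted p = 0.0426). DBI, the acyl-CoA binding protein, went the other way with 693 and 681 CPM in the controls and 339.9 and 383 CPM with FFAs. Its log2 change was -0.93 ± 0.15 (adjusted p = 0.0418). FABP1, the liver fatty acid binding protein, had 9744 and 10223 CPM in the controls and 6832 and 8079 CPM with FFAs, lower in both FFA libraries without passing (adjusted p = 0.0686).

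In fatty acid oxidation and ketogenesis, 7 of 32 genes were used, with a median of 0.68, and ACAA2 rose. ACAA2, the last thiolase of mitochondrial beta-oxidation, had 92.3 and 96.2 CPM in the controls and 204 and 302 CPM with FFAs and entered through its FFA values (log2 change 1.39 ± 0.27, adjusted p = 0.0471). ETFB, which carries electrons out of the pathway, had 1288 and 1272 CPM in the controls and 1122 and 886 CPM with FFAs and was lower in both FFA libraries without passing (adjusted p = 0.146), whereas its partner ETFA had 154 and 173 CPM in the controls and 245 and 282 CPM with FFAs. Of the 23 genes of fatty acid synthesis and desaturation, 2 were used and neither passed. CPT1A, HMGCS1, SCD, FASN and XBP1 were under 100 CPM and are not described.

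Cholesterol synthesis and uptake had a median of 0.55 over 8 of 30 genes, and both FFA values lay above both controls for 7 of the 8 (35.4% of all genes used), but none passed. MSMO1, a sterol C4-methyl oxidase, was nearest, with 77.2 and 96.2 CPM in the controls and 163 and 302 CPM with FFAs (log2 change 1.36 ± 0.35, adjusted p = 0.0628). It entered only through its FFA values, so the filter itself favoured its rise. FDFT1, squalene synthase, had 280.0 and 335 CPM in the controls and 455 and 463 CPM with FFAs (adjusted p = 0.0711).

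Apolipoprotein genes split. Of 10 used, 2 rose, 1 fell and 7 did not pass, with a median of -0.018. APOB, the structural protein of very low density lipoprotein, had 221 and 212 CPM in the controls and 374 and 403 CPM with FFAs (log2 change 0.84 ± 0.17, adjusted p = 0.0471). APOE, a ligand of lipoprotein receptors, had 95.9 and 62.4 CPM in the controls and 204 and 242 CPM with FFAs and entered through its FFA values (log2 change 1.51 ± 0.30, adjusted p = 0.0471). APOM, a small carrier on high density lipoprotein, fell, with 838 and 1049.7 CPM in the controls and 551 and 423 CPM with FFAs (log2 change -0.96 ± 0.19, adjusted p = 0.0471).

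The other small apolipoproteins were lower in both FFA libraries without passing. APOA2, a major protein of high density lipoprotein, had 13008 and 15318 CPM in the controls and 10592 and 6931 CPM with FFAs (adjusted p = 0.0711), and APOC1 had 942 and 1071 CPM in the controls and 714 and 564 CPM with FFAs (adjusted p = 0.0595). APOA1, the main protein of the same particles, had 6653 and 6559.5 CPM in the controls and 7111 and 9408 CPM with FFAs, with a log2 change of 0.31 ± 0.15 (adjusted p = 0.188).

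Among plasma carriers and fetal liver proteins, 20 of 32 were used, 4 rose, none fell and the median was 0.42. AFP, alpha-fetoprotein, a fetal liver protein that hepatocarcinoma cells make, had 4914 and 5481 CPM in the controls and 7974 and 9913 CPM with FFAs (log2 change 0.78 ± 0.14, adjusted p = 0.0418). It rested on the most reads of any gene that passed, 1173 and 492 in the FFA libraries. AGT, angiotensinogen, had 539 and 552 CPM in the controls and 809 and 886 CPM with FFAs (log2 change 0.63 ± 0.13, adjusted p = 0.0471, but -0.041 with TMM factors over every gene).

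ITIH2, an inhibitor chain that binds hyaluronan, had 292 and 254 CPM in the controls and 462 and 584 CPM with FFAs, and SERPINA5, the protein C inhibitor, had 109 and 132 CPM in the controls and 252 and 484 CPM with FFAs. The log2 changes were 0.93 ± 0.19 for ITIH2 (adjusted p = 0.0471) and 1.53 ± 0.33 for SERPINA5 (adjusted p = 0.0485). ALB, albumin, differed between the FFA libraries themselves, with 6814 and 9533 CPM in the controls and 9810.1 and 21658 CPM with FFAs. Replicate 1 with FFAs lay next to the higher control, and the log2 change of 0.85 ± 0.36 did not pass (adjusted p = 0.148). TF, transferrin, had 1131 and 1158 CPM in the controls and 1808 and 3405 CPM with FFAs and a similar gap between its FFA libraries (adjusted p = 0.0595).

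Among coagulation and complement genes, 10 of 35 were used, 2 rose, none fell and the median was 0.47. FGB, the beta chain of fibrinogen, had 880.2 and 962 CPM in the controls and 1346 and 1451 CPM with FFAs (log2 change 0.60 ± 0.12, adjusted p = 0.0471, but -0.073 with TMM factors over every gene). The other fibrinogen chains, FGA and FGG, were higher in both FFA libraries without passing (log2 change 0.65 ± 0.17 and 0.31 ± 0.11, adjusted p = 0.062 and 0.12). SERPINF1, an inhibitor of blood vessel growth, had 486 and 483 CPM in the controls and 884 and 846 CPM with FFAs (log2 change 0.83 ± 0.13, adjusted p = 0.0418).

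The cytoskeleton and adhesion list held 4 genes that rose among 14 used, none that fell, and had a median of 0.50. KRT18, the keratin partner of KRT8 in hepatocytes, had 311 and 299 CPM in the controls and 748 and 685 CPM with FFAs (log2 change 1.23 ± 0.15, adjusted p = 0.0339). KRT8 had 459 and 437 CPM in the controls and 619 and 645 CPM with FFAs and did not pass (adjusted p = 0.07). ACTB, cytoplasmic actin, had 276 and 247 CPM in the controls and 523 and 625 CPM with FFAs (log2 change 1.13 ± 0.17). CFL1, the actin-severing protein cofilin, had 215 and 203 CPM in the controls and 360.3 and 403 CPM with FFAs (log2 change 0.86 ± 0.17). FN1, fibronectin, had 269 and 214 CPM in the controls and 476 and 443 CPM with FFAs (log2 change 0.94 ± 0.18, adjusted p = 0.0471). GPC3, a cell surface proteoglycan that marks hepatocellular carcinoma, was on no list and had 767 and 831 CPM in the controls and 1557 and 2156 CPM with FFAs, a log2 change of 1.197 ± 0.18 (adjusted p = 0.0418).

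Cytosolic ribosomal proteins make up the largest list. Of 80 genes, 77 were used, 11 fell, 1 rose and 65 did not pass, and the median log2 change was -0.42. Both FFA values lay below both controls for 64 of the 77, against 31.6% of all genes. Together these genes took 26.1% and 26.0% of the reads in the controls and 20.9% and 19.0% with FFAs. RPS21 fell most of them, with 5854 and 5585 CPM in the controls and 3542 and 3123 CPM with FFAs (log2 change -0.78 ± 0.11, adjusted p = 0.0411). RPLP2, an acidic protein of the ribosomal stalk, had 5037 and 5057 CPM in the controls and 3379 and 3405 CPM with FFAs (log2 change -0.57 ± 0.10), with replicates that differed little. RPL32, of the large subunit, had 2825 and 2735 CPM in the controls and 1924 and 1451 CPM with FFAs (log2 change -0.73 ± 0.16).

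RPL13 was the ribosomal protein gene that rose, with 2482 and 2614 CPM in the controls and 3753 and 4231 CPM with FFAs (log2 change 0.65 ± 0.11, adjusted p = 0.0418, but -0.030 with TMM factors over every gene). Ribosomal protein genes have many near-identical processed pseudogenes, so reads of single members are uncertain, and a processed pseudogene, AC073861.1, was itself among the 23 that fell. Of 31 translation factors used, 2 rose and none fell, with a median of 0.18. EEF1A1, the elongation factor that brings tRNAs to the ribosome, had 5100.5 and 5591 CPM in the controls and 7811 and 8341 CPM with FFAs (log2 change 0.60 ± 0.11, adjusted p = 0.0418, but -0.080 with TMM factors over every gene). EIF5A, which helps ribosomes past proline stretches, had 183 and 163 CPM in the controls and 421 and 302 CPM with FFAs (log2 change 1.04 ± 0.22, adjusted p = 0.0471).

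Nuclear genes of the respiratory chain and ATP synthase had a median of -0.31 over 62 of 74 genes, with 4 that fell, none that rose and 58 that did not pass. ATP5F1E, the epsilon subunit of ATP synthase, had 1826 and 1844 CPM in the controls and 1183 and 1108 CPM with FFAs (log2 change -0.68 ± 0.11, adjusted p = 0.0418). COX7C, of cytochrome c oxidase, had 1214 and 1198 CPM in the controls and 775 and 705 CPM with FFAs (log2 change -0.71 ± 0.13), COX6B1 of the same complex had 481 and 488 CPM in the controls and 299 and 282 CPM with FFAs (log2 change -0.74 ± 0.15), and ATP5ME had 589 and 558 CPM in the controls and 360.3 and 302 CPM with FFAs (log2 change -0.79 ± 0.16). Of the 14 mitochondrially encoded genes used, none passed, and the median was -0.26. The nearest was MT-CO2, a subunit of cytochrome c oxidase, with 7515 and 6949 CPM in the controls and 5017 and 5379 CPM with FFAs (log2 change -0.48 ± 0.10, adjusted p = 0.0511).

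Of the remaining lists, cytosolic heat shock proteins had a median of 0.50 over 16 genes, of which CCT7, a subunit of the folding chamber for actin and tubulin, rose (log2 change 1.06 ± 0.18, adjusted p = 0.0418). HSPA8, the constitutive cytosolic Hsp70, had 281 and 226 CPM in the controls and 381 and 564 CPM with FFAs and did not pass (adjusted p = 0.0679). No gene passed among 25 of the proteasome (median -0.026), 19 antioxidant and NRF2 target genes (-0.044), 7 of glycolysis (0.30), 9 of the cell cycle (0.13) and 4 of metal handling (-0.46). In that last list, the metallothionein MT2A had 127 and 123 CPM in the controls and 149.6 and 20.2 CPM with FFAs, and its lowest value was a single read, under the floor of 3.

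Outside the lists, HNRNPF, an RNA-binding splicing factor, had 71.8 and 79.3 CPM in the controls and 197 and 242 CPM with FFAs (log2 change 1.52 ± 0.26), and ADRM1, a ubiquitin receptor of the proteasome, had 65.8 and 60.3 CPM in the controls and 163 and 242 CPM with FFAs (log2 change 1.64 ± 0.31). AC090227.2, a gene known by its clone name, had 58.5 and 64.5 CPM in the controls and 149.6 and 222 CPM with FFAs (log2 change 1.55 ± 0.32). All 3 entered through their FFA values. AC090227.2 overlaps ACAA2 on the same strand of chromosome 18, and whether its reads are separate from those of ACAA2 was not tested. GTF2A1, of the general transcription factor TFIIA, had the largest fall, with 244 and 298 CPM in the controls and 116 and 141 CPM with FFAs (log2 change -1.07 ± 0.22, adjusted p = 0.0471), on 17 and 7 reads in the FFA libraries. The histone gene HIST1H4C fell by 0.91 on the log2 scale, NOP10, of small nucleolar ribonucleoproteins, by 0.89, MRPL52, of the mitochondrial ribosome, by 0.88, and PPIA, cyclophilin A, by 0.55.

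**Figure D3:**
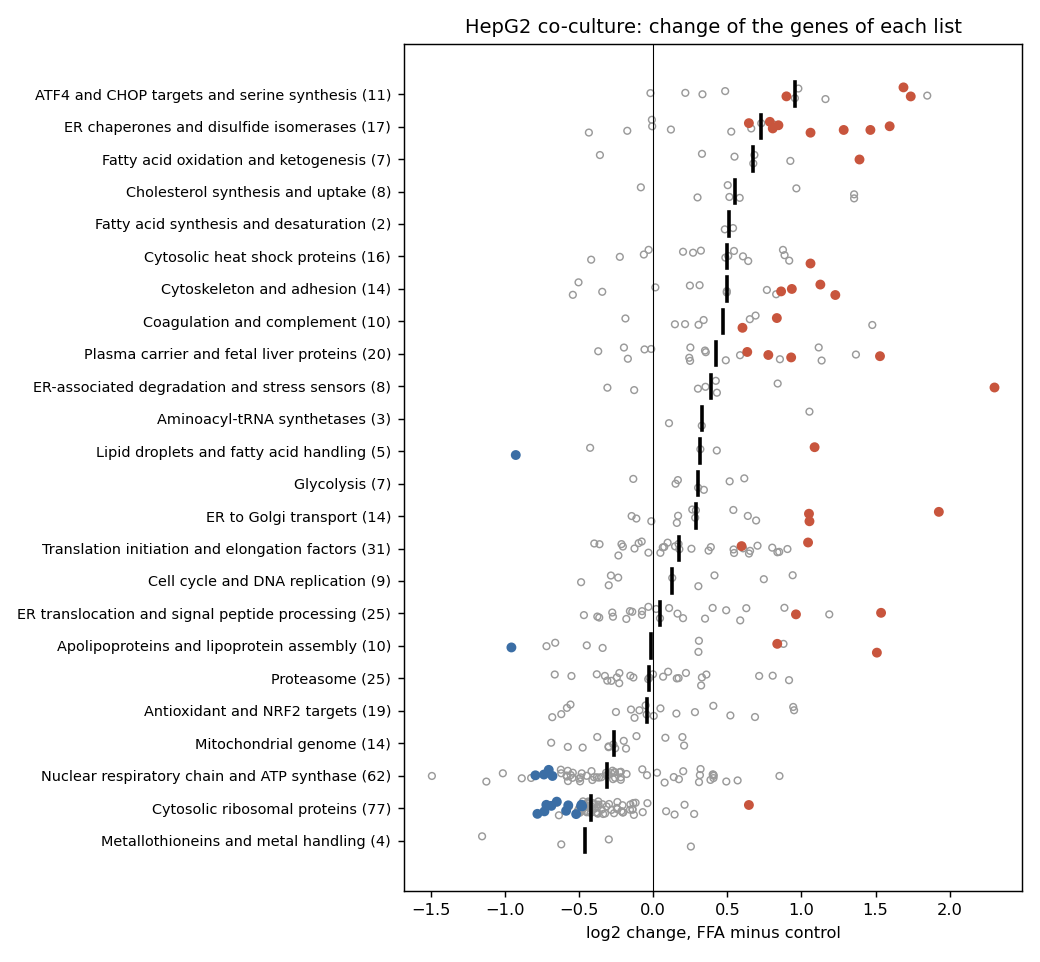
For 24 gene lists, each point is the log2 change (FFA minus control) of a gene used, filled red where it rose and blue where it fell, open where it did not pass, and the bar is the list's median. The number used is in brackets. ER chaperones had 8 filled points, all to the right, and ribosomal proteins had 11 to the left and 1 to the right.

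Transcript length moved with these changes. Genes whose canonical transcript is under 500 bases had a median log2 change of -0.48 (91 genes), those of 500 to under 750 bases -0.35 (169), those of 750 to under 1000 bases -0.14 (150), those of 1000 to under 1500 bases 0.044 (202), those of 1500 to under 2500 bases 0.37 (260) and those of at least 2500 bases 0.27 (314). The median length was 2195.5 bases for the genes that rose, 607 for those that fell and 1449 for all used. Across 1186 genes, which share these 4 libraries, Spearman's rho of length and change was 0.477. The median length behind a read was 1174 bases in both controls and 1440 and 1542 bases with FFAs.

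Length was then taken out by centring each library within 10 bins of length, an alternative chosen after seeing the data. With it, 30 genes passed, 14 upward and 16 downward, and 21 of them were among the 73. Of the 50 genes that rose, 14 passed, and of the 23 that fell, 7 did. HSPA5 (log2 change 1.08), PDIA4 (1.22), HERPUD1 (2.05), PSAT1 (1.40), TMED2 (1.68) and RPN1 (1.29) passed, as did RPL32 (-1.07) and ATP5F1E (-0.89), whereas RPS21 (-0.45) and PLIN2 (0.75) did not, with adjusted p = 0.0968 and 0.114. Of the 8 ER chaperones that rose, HSPA5, PDIA4 and MANF passed and 5 did not, P4HB (adjusted p = 0.0581), PDIA3 (0.082), CALR and HSP90B1 (0.113 each) and PDIA6 (0.18). Among the falls, DBI (adjusted p = 0.0858), COX7C (0.12) and RPLP2 (0.236) did not pass. The median of the ER chaperones became 0.45, that of the ATF4, CHOP and serine list 0.62 and that of the ribosomal proteins -0.24. The part of library depth in this pattern was not tested.

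**Figure D4:**
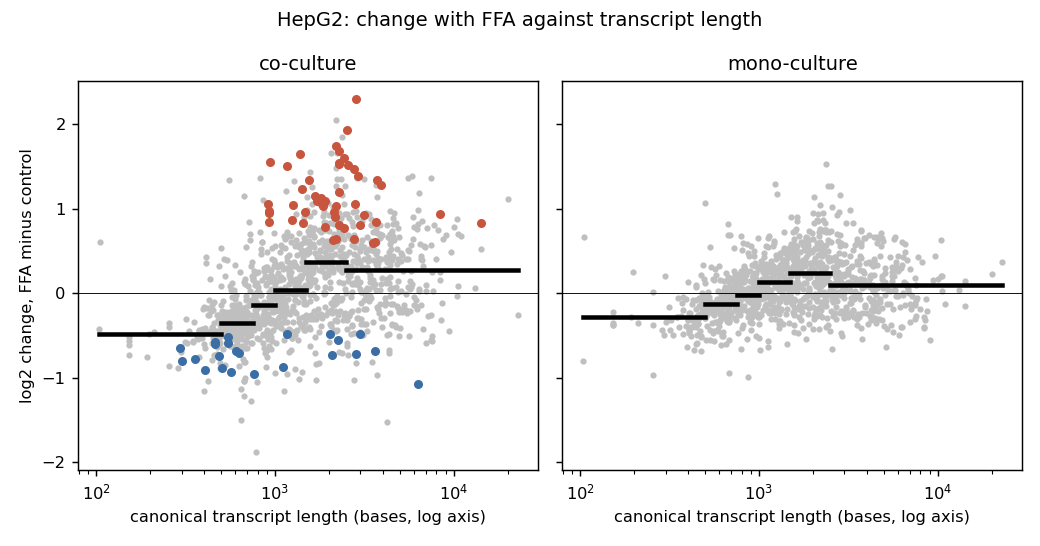
Each point is a gene, with the length of its canonical transcript in bases (log axis) against its log2 change (FFA minus control), in co-culture and mono-culture, and black bars are medians within length ranges. Genes that rose (red) or fell (blue) in co-culture are coloured on the left. Medians climbed from -0.48 under 500 bases to 0.37 at 1500 to under 2500 bases in co-culture, and from -0.27 to 0.25 in mono-culture.

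HepG2 grown alone was used to ask whether FFAs changed these genes differently when Caco-2 was absent. The 4 mono-culture libraries are separate from the 4 above and more even in depth. Of the 73 genes, 70 (95.9%) had the same direction there, as did 886 (74.6%) of all 1187. The exceptions were FN1, MRPL52 and YBX1. HSPA5 had 1335 and 1240.4 CPM in the mono-culture controls and 1868 and 2205 CPM in the mono-culture FFA libraries, a log2 change of 0.66 ± 0.14. HERPUD1 had 181 and 189 CPM without and 360.4 and 477 CPM with FFAs (1.16 ± 0.26). PLIN2 had 174 and 164 CPM without and 203 and 397 CPM with FFAs (0.74 ± 0.28).

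Medians of the lists were 0.38 in mono-culture for ER chaperones, 0.67 for the ATF4, CHOP and serine list, 0.45 for ER to Golgi transport and -0.14 for ribosomal proteins. The same climb with transcript length was seen, with a Spearman's rho of 0.334. In a fit to all 8 HepG2 libraries, limma called 287 genes in co-culture (24.2%) and 0 in mono-culture (0%), where 199 had an unadjusted p under 0.05. The difference itself, an interaction of FFAs and culture, passed for 0 genes (0%). There, 116 genes had an unadjusted p under 0.05, and edgeR likewise called 0, with 104 at that level. No gene was therefore shown to respond differently in the 2 cultures, and the smallest adjusted p was 0.405. Without FFA replicate 1 of the co-culture, 185 genes passed the interaction test.

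The genes nearest to passing were GPC3, PPIA, MT-CO2, S100A10 and NDUFA2. GPC3 had 861 and 772 CPM in the mono-culture controls and 926 and 982 CPM in the mono-culture FFA libraries, and its co-culture change exceeded the mono-culture change by 0.97 ± 0.22 on the log2 scale. PPIA had 1941 and 1849 CPM in those controls and 1934 and 1834 CPM with FFAs, and the difference was -0.54 ± 0.14. MT-CO2 had 7028 and 8258 CPM and, with FFAs, 8197 and 8837 CPM, with a difference of -0.64 ± 0.16. In the co-culture FFA libraries, S100A10 rested on 11 and 3 reads and NDUFA2 on 10 and 2, so their differences of -1.28 ± 0.33 and -1.57 ± 0.42 include values at or under the floor. All 5 had an adjusted p of 0.405.

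**Figure D5:**
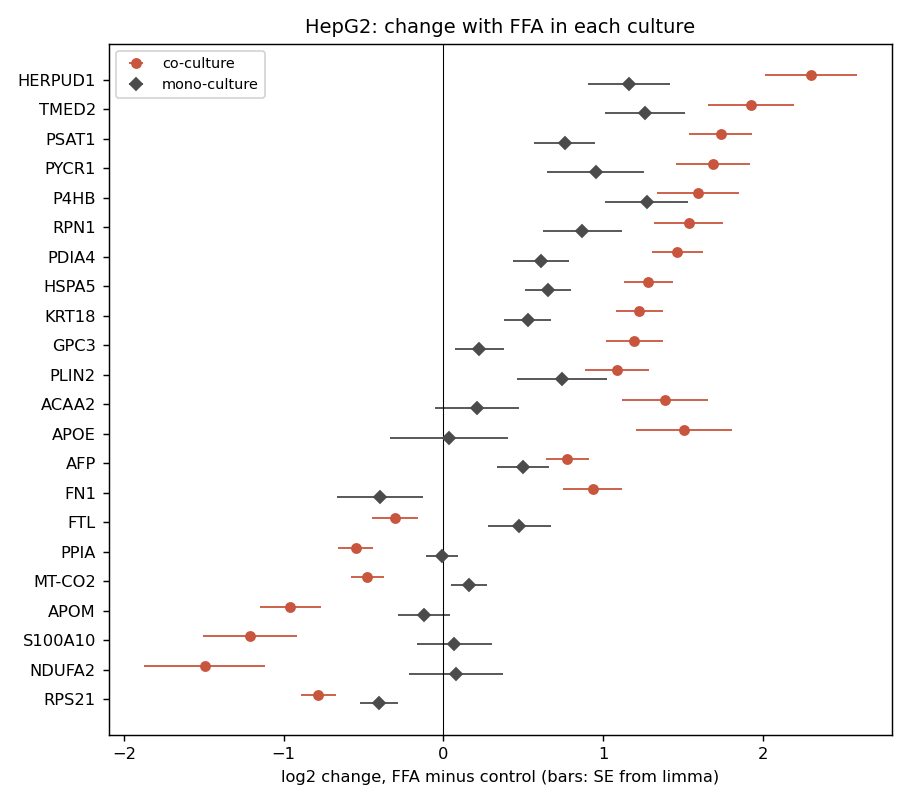
For 22 genes, the log2 change (FFA minus control) is shown with its SE from limma, in co-culture (red circles, fit to 4 libraries) and in mono-culture (grey diamonds, fit to 8 libraries). HERPUD1 stood at 2.30 in co-culture and 1.16 in mono-culture and HSPA5 at 1.29 and 0.66. FN1, FTL, MT-CO2, S100A10 and NDUFA2 lay on different sides of 0 in the cultures. No difference between the cultures passed the interaction test.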

How the data were processed

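Polyadenylated RNA of HepG2 cells was sequenced by the authors with a Nanopore PCR-cDNA kit. The submitters' processing notes name minimap2 2.22 and GRCh38. The study's mRNA-seq methods instead describe mapping with STAR and TPM from RSEM, after removal of mitochondrial reads, without saying for which reads. Mitochondrial genes hold reads here, and the counting of the minimap2 alignments is not given in the sources used here. The deposited values are named TPM but are CPM: within each library 100% are whole multiples of the value of 1 read (tolerance 0.1 read), and reads were recovered from that step. Of 60623 genes listed, 60295 matched GENCODE 44, which gave canonical transcript lengths.

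Genes averaging 100 CPM or more over the 4 libraries were tested on log2(CPM + 1) with limma 3.58.1 in R 4.3.3 (trended prior variance, two-sided, prior and residual degrees of freedom 4.42 and 2) and Benjamini-Hochberg adjustment at 0.05. Fold changes on this scale slightly understate low genes. The interaction used 8 HepG2 libraries. edgeR 4.0.16 and DESeq2 1.42.0 were run on recovered reads. The fit was tested on simulated data. Replicates differed by more than sampling noise (chi-square per degree of freedom 2.42 for the controls, 1.52 with FFAs). An exact permutation test of 2 against 2 libraries cannot go below 0.333 and was not used.

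The 26 lists and the genes named were chosen with earlier results of these data known. Named were the 10 largest rises and 10 largest falls among non-overlapping genes that passed, up to 4 members per list with the smallest p (or the nearest member), 18 preset genes (12 tested), and the 5 smallest interaction p-values. Any other gene in the text was chosen after its values were seen. Some genes named by this rule are not reported here. Other alternatives are in the closing section.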

Additional observations from a re-analysis of the deposited data

Results flagged for a closer look

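FTL, the light chain of ferritin, lay below its controls in one culture and above them in the other. In co-culture it had 14443 and 15257 CPM in the controls and 13800.1 and 10537 CPM with FFAs, lower in both FFA libraries (log2 change -0.30 ± 0.14, adjusted p = 0.19). In mono-culture it had 11924 and 11683 CPM in the controls and 13106 and 20595 CPM with FFAs, higher in both. The co-culture change minus the mono-culture change was -0.777 on the log2 scale, and the interaction test did not pass (limma, adjusted p = 0.467).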

How the results depend on the processing

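Of 73 genes in co-culture, counts were alike with a pseudocount of 0.1 (73) or 20 (72), median-ratio rescaling (87, of which 49 rose) and DESeq2 (95, of which 47 rose). They were 0 without a filter and with genes averaging 10 CPM or more (3477 and 932 at an unadjusted p under 0.05), 0 with a constant prior variance (361 unadjusted), 2 after thinning, 8 after quantile normalization and 38 with TMM factors. They were 138 among genes averaging 300 CPM or more (54 rose), 236 with edgeR, 287 in the fit to 8 libraries and 405 with an unadjusted p under 0.05 and a fold of at least 1.2. The cause was not tested. With the replicate number as a block 241 passed (122 rose). The deviations of libraries of the same number correlated at 0.0927 over 2 pairs. With so few reads in the FFA libraries, this value cannot show whether libraries of the same number share a chip or day. The block changed no call in the interaction. Leaving out 1 library gave 15 to 721 genes in co-culture and 0 to 185 in the interaction, with 185 without FFA replicate 1, where the lone FFA library is assumed to vary like the others.

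Chosen after seeing the data were length-centring (30, of which 14 rose), a total without ribosomal protein and mitochondrial genes (133, of which 44 rose), array weights (152, of which 92 rose) and TMM factors over every gene with a read. The last moved the median of all genes to -0.65, so that 541 passed and 11 rose. There RPL13 (-0.030), EEF1A1 (-0.080), FGB (-0.073), AGT (-0.041), LDHA (-0.060), FTH1 (-0.42), APOA1 (-0.37), HACD3 (-0.19), DDIT3 (-0.18) and ATF4 (-0.46) were negative on the log2 scale, and all 10 lay above that median. With HSP90B1 (-0.030), 5 of the 50 genes that rose were negative there, the others being RPL13, EEF1A1, FGB and AGT. MT2A was 0.26 without FFA replicate 2 and -2.57 without FFA replicate 1. Without FFA replicate 2, DDIT3 was -0.22 and ATF4 0.67. After thinning, DDIT3 was -1.04 and ATF4 -0.026, and without FFA replicate 1 ATF4 was -0.23. HERPUD1, HSPA5, PDIA4 and PSAT1 passed in 19 of 23 alternatives, the most of any gene. At 49634 reads in the shallowest library, genes under 100 CPM could not be compared.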
